A study of Mus musculus with 4 samples.

Results

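Complement and coagulation genes, 47 in all, were followed through 5 cell types of the mouse liver in single-nucleus RNA sequencing data, to see which nuclei carried each transcript. The 22 complement and 25 coagulation genes were taken by symbol from the 32292 features counted in each library, and all 47 were found. The groups were 2 CKO libraries, from male mice with Rbpj deleted in hepatic progenitor cells, and 2 libraries from wild-type (WT) male mice. Both groups were fed DDC, which causes bile duct injury, over 4 weeks, starting when the mice were 10 to 11 weeks old, and no library without DDC was analysed. The Cre driver and the number of animals in a library are not given in the sources used here. P-values therefore measure the spread between libraries, which may be technical.

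Complement is a cascade of plasma proteases started by C1q on antibody, by mannose-binding lectins with their MASP proteases on sugars, or by the alternative route with factor B. Every route cleaves C3 and C5 and can end in the membrane attack complex, a pore in the target membrane. Coagulation also runs through plasma zymogens, from contact factors or tissue factor to thrombin, which turns fibrinogen into fibrin, and it is held back by antithrombin, protein C with protein S, and tissue factor pathway inhibitor. Hepatocytes are the textbook source of most of these proteins, while factor VIII and von Willebrand factor are known from endothelial cells and C1q from macrophages.

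The libraries held 38003108 and 12261329 UMIs in 16000 and 5184 barcodes in CKO, and 45620141 and 13914845 UMIs in 16000 and 6480 barcodes in WT. Nuclei were sorted by marker genes, after a clustering whose variable genes left out the 47, and 17338 of 39017 barcodes kept after doublet removal fell into the 5 classes. A class name means resemblance to its markers. Of 15 markers each, 12 hepatocyte, 15 endothelial, 15 mesenchymal, 13 macrophage and 10 cholangiocyte markers stood 1.5 times or more above free RNA in all 4 libraries in their own class, and cholangiocyte nuclei had 3 hepatocyte markers raised as well. The fewest nuclei, 45, were the cholangiocyte nuclei of CKO replicate 2. Hepatocyte nuclei fell mostly into 1 cluster per library, and pairs of libraries shared 19 to 114 cell barcodes. Rbpj had 73.3 and 41.1 CPM in CKO and 81.2 and 65.2 CPM in WT cholangiocyte nuclei (CPM: UMIs per 1000000 UMIs of that class and library), so the genotypes overlapped. Tags came from the 3' end and the deleted part of Rbpj is not given in the sources used here, so this does not check the labels.

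RNA set free from broken cells enters every droplet, and in these libraries it was rich in hepatocyte transcripts. Its profile was taken from the barcodes with the lowest UMI totals (10% per library) and scaled to each class by 20 secreted hepatocyte transcripts. The estimated share of free RNA was 81.1% and 85.98% in CKO and 72.5% and 74.8% in WT endothelial nuclei. It was 77.2% and 80.3% in CKO and 68.3% and 74.98% in WT macrophage nuclei, and 67.7% and 72.8% in CKO and 57.6% and 63.1% in WT mesenchymal nuclei. In these 3 classes both CKO libraries lay above both WT libraries. The genotypes overlapped in cholangiocyte nuclei, at 59.3% and 68.1% in CKO and 53.7% and 59.4% in WT, and in hepatocyte nuclei, at 41.1% and 45.6% in CKO and 39.1% and 42.6% in WT. Hepatocytes make the scaling transcripts themselves, so the share in hepatocyte nuclei can include their own RNA. Scaled by 13 mitochondrial transcripts instead, it was 32.0% and 39.7% in CKO and 28.4% and 34.3% in WT hepatocyte nuclei. Because of the free RNA, each member's count is also given as a ratio to the count expected from the free RNA profile, where 1 means no more than the profile. The barcodes of the profile were kept ones, so nuclei of any class can be among them. Ratios of members from cells other than hepatocytes can then be too low, unevenly by library. F8 had 53.4 and 41.6 CPM in CKO and 75.8 and 45.0 CPM in WT in the profile. It had 48.1 and 18.5 CPM in CKO and 60.6 and 18.1 CPM in WT in the unnamed barcodes, while C1qa was about equal in both.

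**Figure D1:**
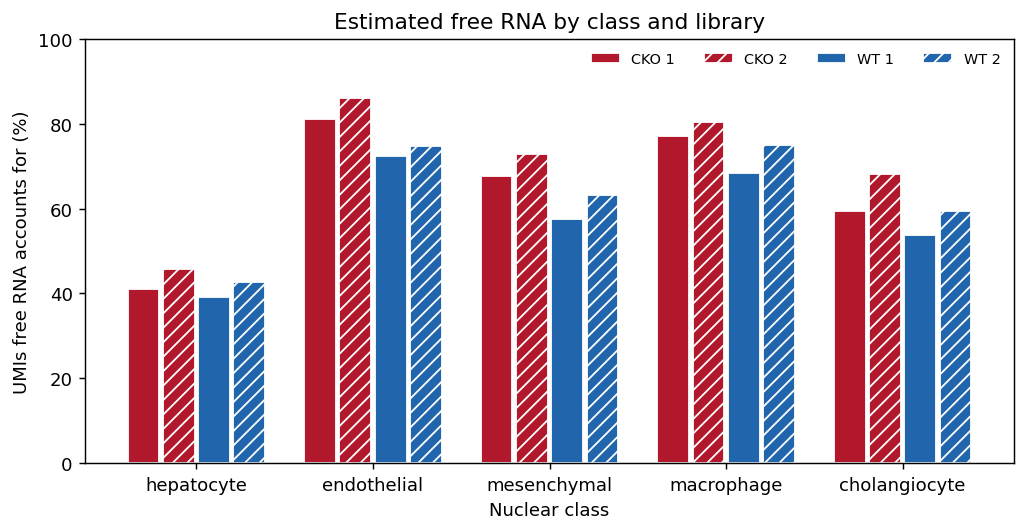
Estimated percent of UMIs from free RNA (y axis) by nuclear class (x axis), with 1 mark per library, CKO left of WT. Endothelial nuclei are at 81.1% and 85.98% in CKO and 72.5% and 74.8% in WT. Hepatocyte nuclei have the lowest share in each library, and that share can include their own RNA.

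A member was called raised in a class at 20 or more UMIs and a ratio of 1.5 or more in each of the 4 libraries, and 30 of the 47 were raised somewhere. Hepatocyte nuclei alone held 19 of them, and Masp1 and Pros1 were raised in hepatocyte and mesenchymal nuclei. F8, Vwf and Tfpi were raised in endothelial nuclei, C7 in mesenchymal nuclei, and C1qb, C1qc, C3ar1, C5ar1 and F13a1 in macrophage nuclei. By class, 21 of 45 members with enough UMIs were raised in hepatocyte nuclei, where 58.8% of all genes were, 3 of 45 in endothelial nuclei (19.7% of all genes), 3 of 44 in mesenchymal nuclei (35.2%), 5 of 47 in macrophage nuclei (24.9%) and 0 of 45 in cholangiocyte nuclei (39.4%). The members' share was below the background in every class. The 17 members raised in no class were C1qa, C1ra, C3, C8b, C8g, Cfb, Cfi, Mbl2, F2, F3, F13b, Fga, Fgb, Fgg, Kng1, Serpind1 and Thbd. Just inside the limit in hepatocyte nuclei was Mbl1, whose lowest library had 1.5, and just outside it F13b, whose lowest had 1.46. By CPM as counted, 17 members were highest in hepatocyte nuclei, and 29 were once the expected free RNA was subtracted.

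**Figure D2:**
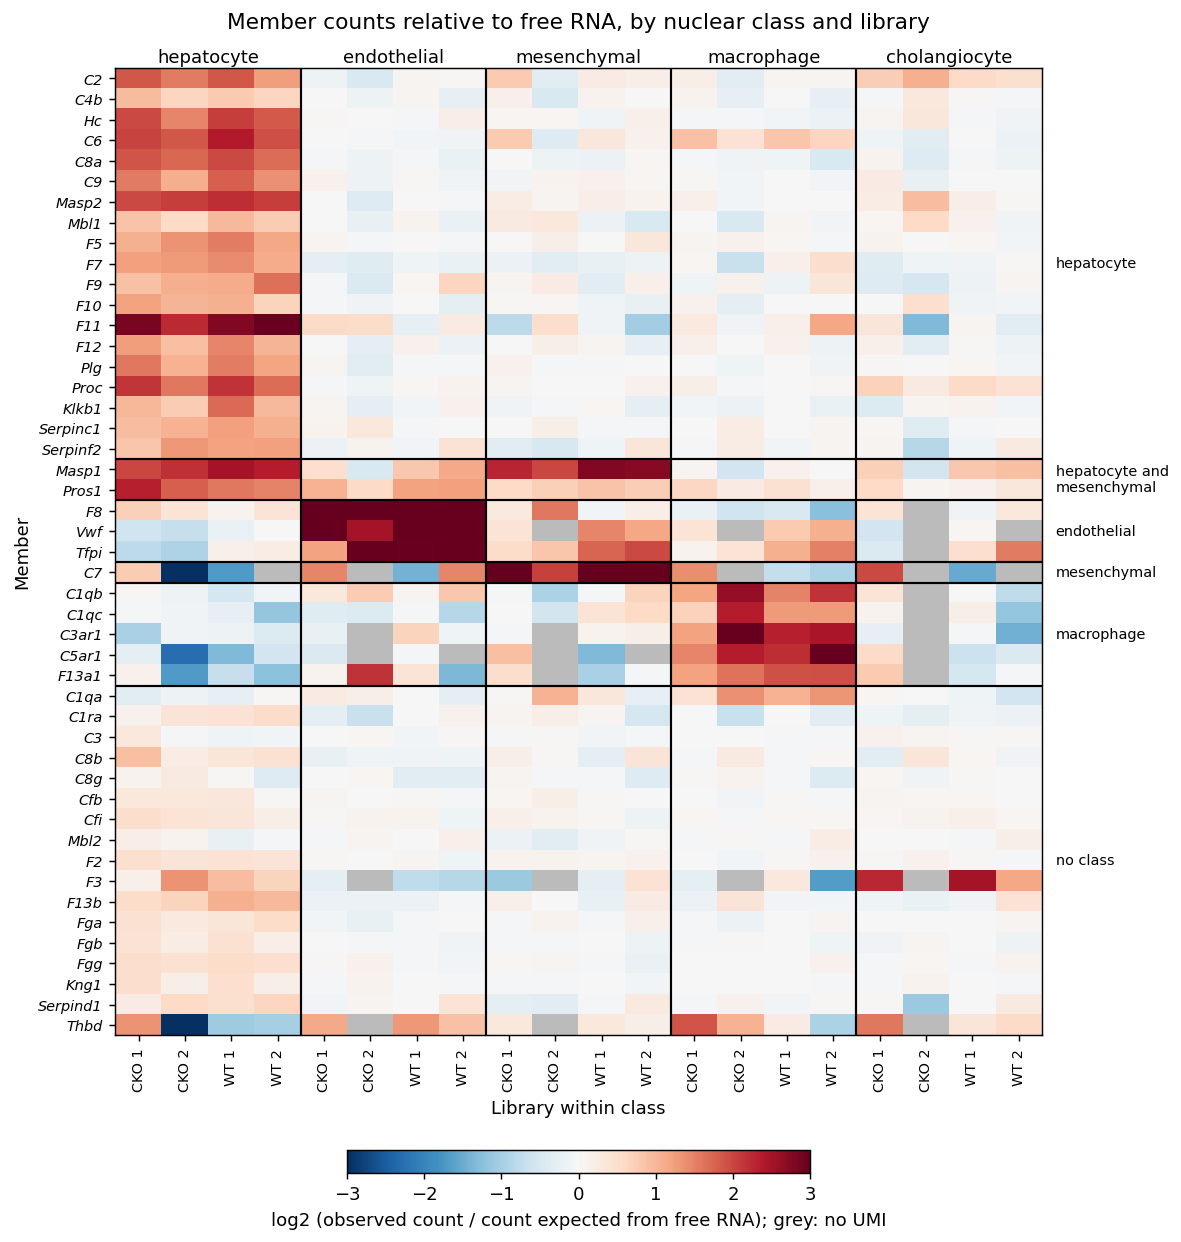
Ratio of the observed count to the count expected from free RNA (colour, log2 scale) for the 47 members in each class and library, CKO left of WT, with grey for 0 UMIs and colours capped at 3 on the log2 scale. Members raised in hepatocyte nuclei have their highest pooled ratio there, except Masp1, at 5.93 in mesenchymal and 4.9 in hepatocyte nuclei. F8, Vwf, Tfpi, C7, the C1q chains and the anaphylatoxin receptors stand out in other classes.

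Promoters are shown for the member with the highest ratio in each source class among those with an entry, so that the 4 sources can be set side by side. Of the 47 members, 36 matched the RefSeq promoter table (build GRCm38.p6), whose windows run from 250 bases before to 50 bases after the start. Shown 5′ to 3′, all from the minus strand, are F11 for hepatocyte (chr8:45261982-45262281), F8 for endothelial (chrX:75379992-75380291), C7 for mesenchymal (chr15:5063724-5064023) and C5ar1 for macrophage nuclei (chr7:16259289-16259588). Capitals mark 3 motifs searched on both strands: GTTAAT, a half-site of the hepatocyte factor HNF1, CAAAGT, the core of an HNF4 motif, and ACTTCC, the core of ETS sites with a flank.
F11: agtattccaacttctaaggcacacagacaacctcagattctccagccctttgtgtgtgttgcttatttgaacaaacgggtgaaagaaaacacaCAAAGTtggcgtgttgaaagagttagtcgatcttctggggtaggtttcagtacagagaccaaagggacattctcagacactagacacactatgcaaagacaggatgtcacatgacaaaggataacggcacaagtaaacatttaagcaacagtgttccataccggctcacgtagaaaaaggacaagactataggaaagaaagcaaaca
F8: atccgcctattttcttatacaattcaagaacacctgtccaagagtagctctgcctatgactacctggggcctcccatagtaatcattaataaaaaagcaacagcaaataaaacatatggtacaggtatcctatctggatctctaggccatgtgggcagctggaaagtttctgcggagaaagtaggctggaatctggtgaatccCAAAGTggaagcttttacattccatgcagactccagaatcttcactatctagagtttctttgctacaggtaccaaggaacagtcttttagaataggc
C7: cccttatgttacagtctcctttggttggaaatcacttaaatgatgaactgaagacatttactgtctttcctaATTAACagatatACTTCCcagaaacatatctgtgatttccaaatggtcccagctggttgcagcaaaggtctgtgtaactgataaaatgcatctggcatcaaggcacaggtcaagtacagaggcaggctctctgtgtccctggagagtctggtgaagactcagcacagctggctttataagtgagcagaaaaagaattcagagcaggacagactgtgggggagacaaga
C5ar1: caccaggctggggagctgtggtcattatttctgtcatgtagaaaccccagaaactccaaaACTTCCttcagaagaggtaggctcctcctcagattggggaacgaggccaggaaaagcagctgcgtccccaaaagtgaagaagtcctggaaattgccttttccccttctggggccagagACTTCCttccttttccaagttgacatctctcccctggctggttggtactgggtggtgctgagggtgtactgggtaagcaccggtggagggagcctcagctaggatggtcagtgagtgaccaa
F11 and F8 each held CAAAGT, C7 held GTTAAT on the opposite strand and ACTTCC, and C5ar1 held ACTTCC in 2 places. ACTTCC was found in 6 of 9 members raised in another class (C1qb, C1qc, C7, C5ar1, F13a1 and Tfpi), whether or not also raised in hepatocyte nuclei. It was found in 2 of 15 raised in hepatocyte nuclei alone (Masp2 and F10), and in 26.5% of the 27025 genes in the table. GTTAAT was found in 1 of those 9, 2 of those 15 and 8.24% of all genes, and CAAAGT in 3 of those 9, 3 of those 15 and 16.1% of all genes. These are matches of letters, with no test.

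In hepatocyte nuclei the lectin route was represented by its proteases. The ratios of Masp2, which cleaves C4 and C2, were 3.94 and 4.23 in CKO and 4.67 and 4.22 in WT, and those of Masp1, which activates Masp2, were 4.02 and 4.53 in CKO and 5.62 and 5.11 in WT. Mbl1, a mannose-binding lectin that carries them, had ratios of 1.8 and 1.5 in CKO and 1.97 and 1.68 in WT. Mbl2, the other lectin, had 1.16 and 1.07 in CKO and 0.864 and 0.977 in WT, so its count in hepatocyte nuclei was about that of free RNA. Because the scaling transcripts are hepatocyte genes themselves, a hepatocyte ratio of 1 does not mean that hepatocytes lack the transcript.

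The terminal complement genes stood well above free RNA, but not all chains alike. C6, a part of the membrane attack complex, had 187 and 535 CPM in CKO and 529 and 344 CPM in WT hepatocyte nuclei, with CKO replicate 1 lowest and the genotypes overlapping, and ratios of 4.09 and 3.62 in CKO and 5.18 and 3.83 in WT. C8a, the alpha chain of C8, had 327 and 602 CPM in CKO and 526 and 400.3 CPM in WT, and Hc, which encodes C5 in the mouse, had 833 and 609.8 CPM in CKO and 928 and 670.3 CPM in WT. Both overlapped between genotypes, and their pooled ratios were 3.62 (95% interval 3.55 to 3.68) and 3.72 (95% interval 3.67 to 3.78), with exact Poisson intervals that cover counting error only. The partner chains C8b and C8g reached only 1.31 and 1.06, and C9, which forms the pore, 2.79.

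Upstream, C2, the protease of the classical C3 convertase, had a pooled ratio of 3.24 and C4b, its partner, 1.69, with the limit that C4a is a near-identical copy between which reads can be split. C3, on which all routes converge, was the most abundant member, at 2387 and 1093 CPM in CKO and 1344 and 1829 CPM in WT hepatocyte nuclei, with the genotypes overlapping. Its ratios were 1.245 and 0.976 in CKO and 0.912 and 0.951 in WT. C3 was more abundant still in the free RNA profile, at 4662 and 2455 CPM in CKO and 3768 and 4512 CPM in WT. Factor B (Cfb) and factor I (Cfi), an activator and an inhibitor of the alternative route, had pooled ratios of 1.2 and 1.31, and the C1r protease gene C1ra had 1.3.

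Among the clotting factors F11, of the intrinsic route, had the highest hepatocyte ratio of any member, at 7.22 and 4.74 in CKO and 6.86 and 7.79 in WT. The cofactor F5 had a pooled ratio of 2.56, F7, the partner of tissue factor, 2.45, F9 2.17 and F10, which cleaves prothrombin, 2.01. The contact genes F12 and Klkb1 had 2.3 and 2.32. Prothrombin (F2) stood lower, at 1.34, and the factor XIII B subunit (F13b) at 1.81.

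Inhibitors and fibrinolytic genes were raised as well, apart from Serpind1 and Tfpi, which encodes tissue factor pathway inhibitor and had a pooled ratio of 0.875. Serpinc1, encoding antithrombin, had 748 and 873 CPM in CKO and 820.2 and 899 CPM in WT hepatocyte nuclei, and Plg, the plasmin precursor, had 757 and 692 CPM in CKO and 662 and 578 CPM in WT. The genotypes overlapped for Serpinc1, while for Plg both CKO libraries lay above both WT libraries, by less than the test asked (log2 difference 0.30, SE 0.24, edgeR adjusted p = 1.0). Their ratios pooled to 2.13 and 2.59, beside 3.74 for Proc, which encodes protein C, 3.43 for its cofactor Pros1, 2.19 for the plasmin inhibitor Serpinf2 and 1.4 for heparin cofactor II (Serpind1).

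The fibrinogen chains and kininogen were abundant but close to free RNA. Fga had 776 and 506 CPM in CKO and 427 and 472 CPM in WT, Fgb 768 and 803 CPM in CKO and 578 and 687 CPM in WT and Fgg 651 and 616 CPM in CKO and 426 and 510.3 CPM in WT hepatocyte nuclei. Kng1, the kininogen gene, had 761 and 692 CPM in CKO and 506 and 529 CPM in WT. For all 4 genes both CKO libraries lay above both WT libraries, and none passed the edgeR test (log2 differences of 0.56, 0.38, 0.50 and 0.56, adjusted p = 1.0 each). How many of all genes lay apart in this way was not counted. Pooled ratios of the 4 were 1.32, 1.27, 1.43 and 1.29. The free RNA profile held Fga at 1364 and 905 CPM in CKO and 849.6 and 758 CPM in WT and Fgb at 1375 and 1498 CPM in CKO and 1070.4 and 1406 CPM in WT, above the hepatocyte nuclei of the same library in each case.

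The 19 members raised in hepatocyte nuclei alone had median ratios of 1.0 in endothelial, 0.992 in mesenchymal, 1.02 in macrophage and 1.01 in cholangiocyte nuclei, against 2.56 in hepatocyte nuclei. The highest of them elsewhere were C6 in macrophage nuclei, at 1.76, and C2 in cholangiocyte nuclei, at 1.52. Within hepatocyte nuclei the ratio increased with the genomic span of the gene, with a Spearman correlation of 0.36 over 45 members, 0.46 over the 19 and 0.30 over 15105 genes, points that share libraries and carry no test. Mbl2, C8g and Fgg span 6.75, 3.07 and 7.33 kb, and C6 and Masp1 span 87.8 and 71.4 kb. Other members ran against this order. F11, Masp2 and Proc, at pooled ratios of 6.33, 4.35 and 3.74, span 20.9, 12.9 and 16.4 kb, and F8, at 1.26, spans 210 kb. Among the members, 13 overlap another counted gene, always on the opposite strand.

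In endothelial nuclei 3 members were raised. F8, encoding the clotting factor lost in haemophilia A, had 740 and 82 UMIs in CKO and 1678 and 179 UMIs in WT endothelial nuclei, or 379 and 299 CPM in CKO and 528 and 406 CPM in WT. Both CKO libraries lay below both WT libraries, without passing the test (log2 difference -0.24, SE 0.27, edgeR adjusted p = 1.0). Its ratios were 8.75 and 8.37 in CKO and 9.6 and 12.1 in WT, against a pooled ratio of 1.26 (95% interval 1.17 to 1.35) in hepatocyte nuclei.

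Vwf, the carrier of factor VIII and tether of platelets, had 163 and 5 UMIs in CKO and 375 and 41 UMIs in WT endothelial nuclei, or 83.4 and 18.2 CPM in CKO and 118 and 93.1 CPM in WT, again with both CKO libraries lower (log2 difference -0.60, SE 0.40, edgeR adjusted p = 1.0). CKO replicate 2 was lowest, and the log2 difference was -2.21 without CKO replicate 1 (edgeR adjusted p = 0.00189). Vwf ratios were 8.71 and 5.61 in CKO and 16.7 and 37.8 in WT, where the free RNA profile of the second library of each genotype had no Vwf UMI and was set to the floor of 3 counts. Tfpi, the inhibitor of the tissue factor complex, had 34.3 and 65.7 CPM in CKO and 87.4 and 52.2 CPM in WT, and the genotypes overlapped (log2 difference -0.54, SE 0.37, edgeR adjusted p = 1.0). That difference was 0.17 without CKO replicate 1 (edgeR adjusted p = 0.902) and -0.96 without CKO replicate 2 (edgeR adjusted p = 0.0381). Tfpi ratios were 2.31 and 8.66 in CKO and 7.75 and 10.6 in WT, lowest in CKO replicate 1.

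Pros1 just missed the limit in endothelial nuclei, with 118 and 54.7 CPM in CKO and 143 and 129 CPM in WT and ratios of 2.06 and 1.49 in CKO and 2.31 and 2.35 in WT. The next members by their lowest library lay below the limit in 2 or more libraries: C1qb with 50.7 and 21.9 CPM in CKO and 54.4 and 27.2 CPM in WT and ratios of 1.251 and 1.68 in CKO and 1.06 and 1.75 in WT, and Serpinc1 with 831 and 999.5 CPM in CKO and 637 and 754 CPM in WT and ratios of 1.07 and 1.24 in CKO and 0.976 and 0.993 in WT. Thbd, the thrombin receptor that activates protein C, was chosen after its values were seen, as a textbook endothelial gene: it had 4 and 0 UMIs in CKO and 20 and 2 UMIs in WT endothelial nuclei. Platelet markers, another source of Vwf and F13a1, summed to 1.45 to 20.5 CPM per class and library, with 2 to 4 of 9 markers at 0 in a class.

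Vwf and F8 parted within the endothelial class. A finer clustering, whose values by library were added after the data were seen, gave clusters 12 and 17, poor in the sinusoidal receptor gene Stab2 (525 and 88 CPM in WT replicate 1), and cluster 13, rich in it (2885 CPM). In WT replicate 1 Vwf had 599.6 and 623 CPM in clusters 12 and 17 and 30.8 CPM in cluster 13. WT replicate 2 had 361 CPM in cluster 12 and 12.1 CPM in cluster 13, and CKO replicate 1 had 474 CPM in cluster 17 and 55.1 CPM in cluster 15, its main one. F8 was high in all of them, with ratios of 8.92, 7.91 and 9.8 in clusters 12, 17 and 13 of WT replicate 1, and 4.97 and 8.7 in clusters 17 and 15 of CKO replicate 1. Clusters 12 and 17 made up 5.38% and 2.63% of endothelial nuclei in CKO and 14.0% and 19.2% in WT. Both this share and the Vwf level of the class were lower in CKO. The library with the larger share had the higher Vwf level within CKO and the lower Vwf level within WT. The part of the share in the Vwf difference was not tested.

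In mesenchymal nuclei C7, a part of the membrane attack complex, stood out most. It had 54 and 2 UMIs in CKO and 231 and 30 UMIs in WT mesenchymal nuclei, or 51.9 and 11.3 CPM in CKO and 116 and 70.1 CPM in WT, and both CKO libraries lay below both WT libraries. The difference did not pass the test (log2 difference -1.06, SE 0.38, edgeR adjusted p = 0.559), but was -2.84 without CKO replicate 1 (edgeR adjusted p = 0.0042), which leaves 2 C7 UMIs in CKO. C7 ratios were 67.1 and 4.13 in CKO and 43.1 and 33.7 in WT, with the profile set to the floor of 3 counts in 2 libraries. Each other class held 8 to 26 C7 UMIs over all 4 libraries, at pooled ratios of 0.294 to 0.902.

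Masp1 was higher in mesenchymal than in hepatocyte nuclei of the same library in all 4, at 399 and 323 CPM in CKO and 395 and 292 CPM in WT mesenchymal nuclei, with the genotypes overlapping. Its mesenchymal ratios were 4.85 and 4.01 in CKO and 6.87 and 6.59 in WT. Pros1, with 73.1 and 51.1 CPM in CKO and 89.2 and 77.1 CPM in WT, lay just inside the limit at 1.52 and 1.64 in CKO and 1.81 and 1.66 in WT, and Tfpi, with 18.3 and 11.3 CPM in CKO and 30.1 and 16.4 CPM in WT, just outside it at 1.47 and 1.77 in CKO and 3.35 and 3.94 in WT. The following members were at free RNA: Masp2 with 65.4 and 85.1 CPM in CKO and 61.1 and 63.1 CPM in WT and ratios of 1.17 and 1.05 in CKO and 1.14 and 1.07 in WT, and F2 with 481 and 454 CPM in CKO and 307 and 367 CPM in WT and ratios of 1.08 and 1.07 in CKO and 1.05 and 1.1 in WT.

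C7 and Masp1 were highest in different mesenchymal clusters. Cluster 8 of the finer clustering had more of the collagen gene Col1a2 (397 CPM in WT replicate 1) than cluster 10 (132 CPM), which had more of the stellate cell gene Reln (2331 against 579.7 CPM). C7 had 94.5 CPM in CKO replicate 1 and 226 and 118 CPM in WT in cluster 8, and 42.4 CPM in CKO replicate 1 and 43.6 and 26.8 CPM in WT in cluster 10. Masp1 had 168 CPM in CKO replicate 1 and 195 and 211 CPM in WT in cluster 8, and 451 CPM in CKO replicate 1 and 523 and 367 CPM in WT in cluster 10. The order was opposite for the 2 genes in each of these 3 libraries, and CKO replicate 2 had only 6 nuclei in cluster 8. Cluster 8 made up 17.9% and 6.67% of mesenchymal nuclei in CKO and 37.4% and 45.3% in WT. Both this share and C7 were lower in CKO. The library with the larger share had the higher C7 level within CKO and the lower C7 level within WT. The part of the share in the C7 difference was not tested. Within cluster 10 the genotypes overlapped in C7, CKO replicate 2 having 6.15 CPM from 1 UMI.

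In macrophage nuclei the raised members were chains of C1q, the anaphylatoxin receptors and the factor XIII A subunit. C5ar1, the receptor for C5a, had 85 and 5 UMIs in CKO and 231 and 19 UMIs in WT macrophage nuclei, or 16.3 and 15.7 CPM in CKO and 34.5 and 24.4 CPM in WT, and both CKO libraries lay below both WT libraries (log2 difference -0.73, SE 0.30, edgeR adjusted p = 0.907). Its ratios were 2.78 and 5.15 in CKO and 4.64 and 9.89 in WT. C3ar1, the receptor for C3a, had 23.6 and 25 CPM in CKO and 41.4 and 27 CPM in WT, without overlap and without passing the test (log2 difference -0.39, SE 0.28, edgeR adjusted p = 1.0), at ratios of 2.3 and 8.25 in CKO and 5.03 and 5.47 in WT.

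C1qb had 87.9 and 75.1 CPM in CKO and 135 and 70.7 CPM in WT macrophage nuclei and ratios of 2.28 and 6.18 in CKO and 2.79 and 4.52 in WT. C1qc had 58.1 and 47 CPM in CKO and 72.9 and 39.9 CPM in WT and ratios of 1.62 and 5.15 in CKO and 2.43 and 2.42 in WT. Both overlapped between genotypes, and so did C1qa, the third chain, which missed the limit through CKO replicate 1 alone, at 1.34 and 2.58 in CKO and 2.06 and 2.5 in WT. F13a1, which makes the enzyme that crosslinks fibrin, had 35.6 and 9.39 CPM in CKO and 34.8 and 21.9 CPM in WT, with overlap, and ratios of 2.32 and 3.09 in CKO and 3.75 and 3.79 in WT. C6 had 156 and 354 CPM in CKO and 317 and 248 CPM in WT, also with overlap, and ratios of 1.83 and 1.36 in CKO and 1.78 and 1.57 in WT, below the limit in CKO replicate 2.

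C6 and F13a1 were high in different macrophages of the same library in replicate 1 of each genotype. Macrophage nuclei of replicate 2 lay mostly in cluster 4 of the finer clustering, at 97.6% in CKO and 84.5% in WT. Replicate 2 is not shown by cluster here. In WT replicate 1 of the finer clustering, cluster 2 was rich in the resident macrophage genes Timd4 (187 CPM) and Clec4f (453 CPM), and cluster 3 in Gpnmb (648 CPM) and the chemokine receptor gene Ccr2 (89 CPM). The C6 ratio was 2.53 (95% interval 2.4 to 2.65) in cluster 2 and 0.967 (95% interval 0.887 to 1.05) in cluster 3, and the F13a1 ratio was 0.894 (95% interval 0.599 to 1.28) in cluster 2 and 6.74 (95% interval 5.84 to 7.75) in cluster 3. CKO replicate 1 showed the same split in its own clusters. Cluster 23, with Timd4 at 155 and Clec4f at 307 CPM, had a C6 ratio of 2.38 (95% interval 2.19 to 2.59) and an F13a1 ratio of 1.07 (95% interval 0.778 to 1.44). Cluster 9, with Gpnmb at 612 CPM, had a C6 ratio of 1.2 (95% interval 1.05 to 1.36) and an F13a1 ratio of 3.41 (95% interval 2.84 to 4.06). C1qb ratios were close to each other in both pairs, at 2.31 and 2.29 in clusters 23 and 9 of CKO replicate 1 and 2.84 and 2.73 in clusters 2 and 3 of WT replicate 1. Nuclei are not replicates, and no test was made between clusters.

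**Figure D3:**
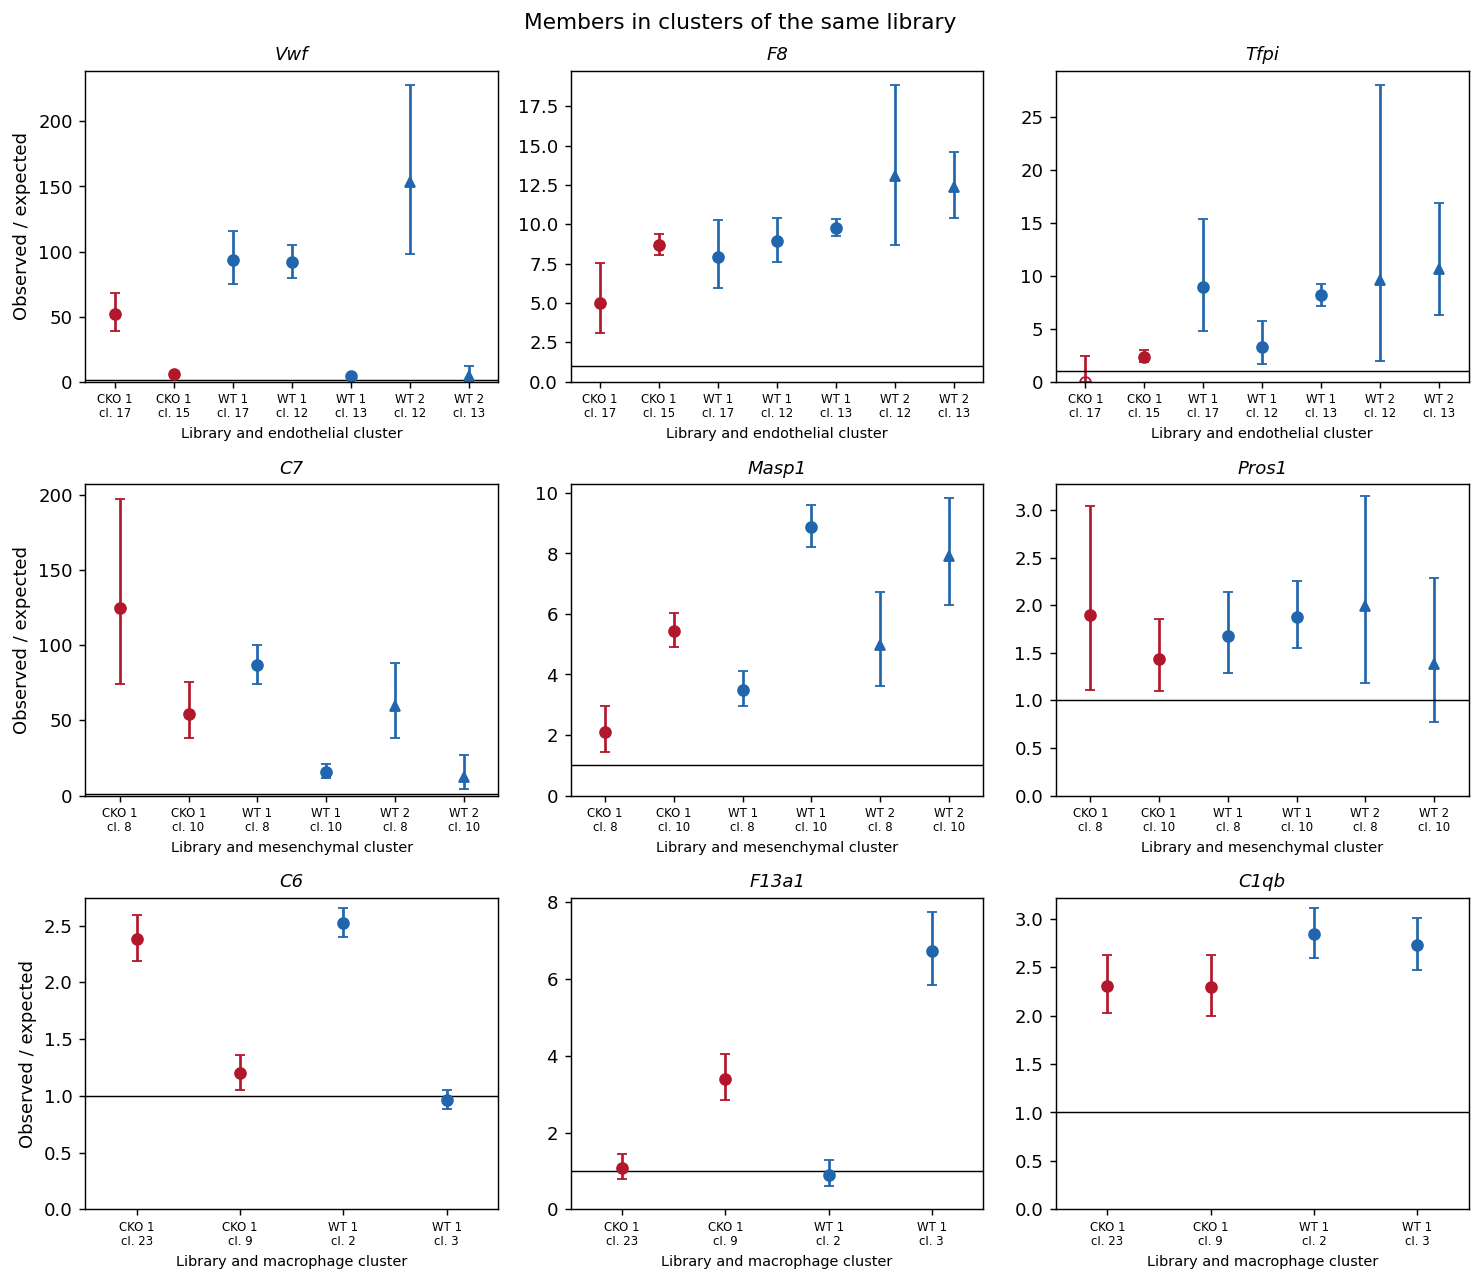
Ratios of observed to expected counts of 9 members in finer clusters of single libraries, CKO before WT, with exact Poisson 95% intervals and a line at 1 for the free RNA profile. Vwf is highest in endothelial clusters 12 and 17, C7 in mesenchymal cluster 8, Masp1 in cluster 10, C6 in macrophage clusters 23 and 2, and F13a1 in clusters 9 and 3.

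No member was raised in cholangiocyte nuclei in all 4 libraries. C2 came closest, with 53.8 and 82.1 CPM in CKO and 53.2 and 56.5 CPM in WT and ratios of 1.66 and 2.08 in CKO and 1.49 and 1.4 in WT, followed by Proc, with 104 and 205 CPM in CKO and 142 and 171 CPM in WT and ratios of 1.61 and 1.21 in CKO and 1.48 and 1.35 in WT. Pros1, with 63.9 and 30.8 CPM in CKO and 50.1 and 55.1 CPM in WT, Cfi, with 284 and 195 CPM in CKO and 215 and 226 CPM in WT, Masp2, with 57.2 and 144 CPM in CKO and 57.3 and 56.5 CPM in WT, and C3, with 3022 and 1766 CPM in CKO and 2086 and 2766 CPM in WT, came next by their lowest library. Their ratios ran from 1.06 to 1.52 for Pros1, 1.04 to 1.11 for Cfi, 1.02 to 1.9 for Masp2 and 1.03 to 1.09 for C3. They pooled to 1.19, 1.08, 1.16 and 1.05.

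F3, encoding tissue factor, which starts coagulation, and Masp1 were chosen in this class after their values were seen. F3 had 26 and 0 UMIs in CKO and 102 and 5 UMIs in WT cholangiocyte nuclei and ratios of 4.83 and 0 in CKO and 5.63 and 2.22 in WT, and its 0 UMIs among the 45 nuclei of CKO replicate 2 do not show that it was absent. In hepatocyte nuclei its ratios were 1.11 and 2.55 in CKO and 1.89 and 1.6 in WT, pooling to 1.83 (95% interval 1.52 to 2.18). In endothelial, mesenchymal and macrophage nuclei its pooled ratios were 0.64, 0.737 and 1.0. At Leiden resolution 1, cluster 0 was the larger cholangiocyte cluster and had no raised hepatocyte marker. In cluster 0 alone F3 also stood above free RNA, at 4.77 in CKO replicate 1 and 5.28 in WT replicate 1. Masp1 reached 3.12 in CKO replicate 1 and 5.01 and 6.07 in WT in cluster 6, where 3 hepatocyte markers were raised too, and 1.21 in CKO replicate 1 and 1.16 and 1.08 in WT in cluster 0.

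**Figure D4:**
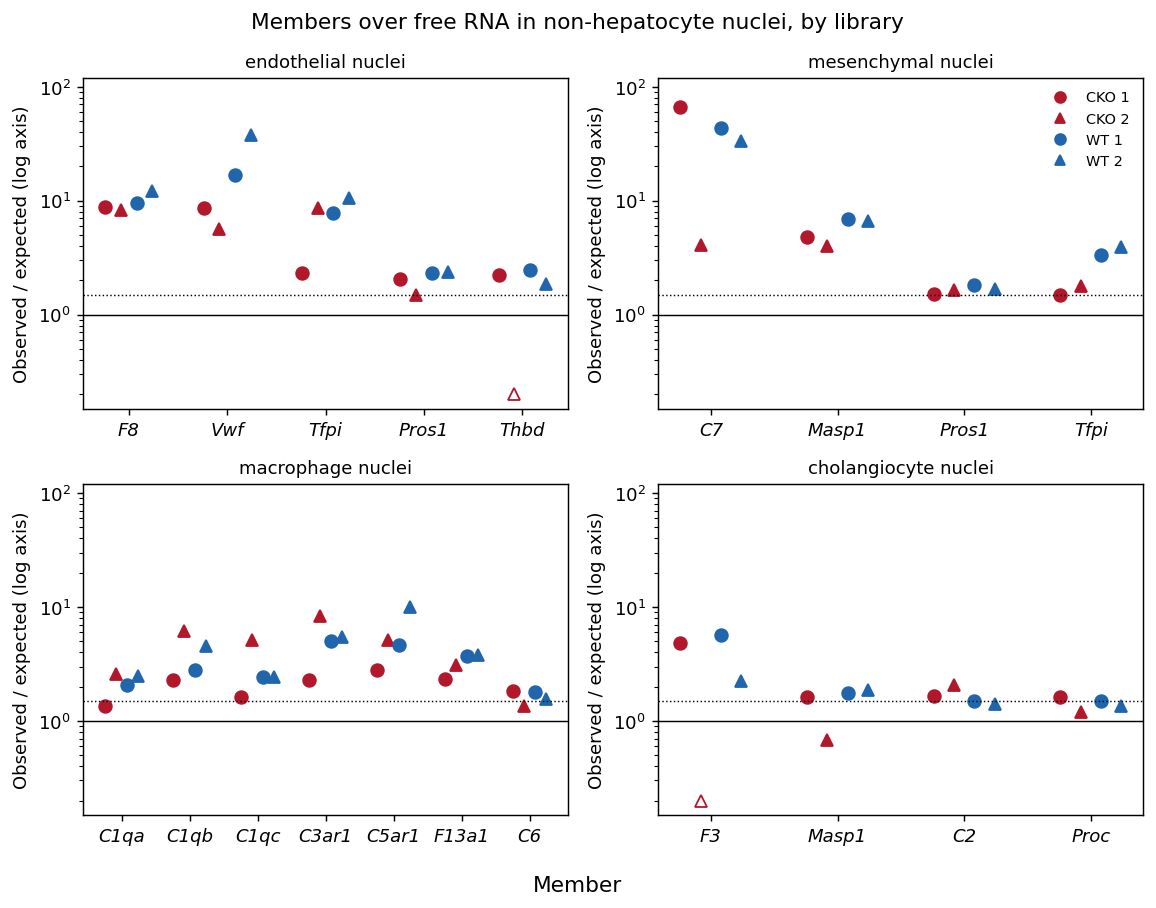
Ratio of observed to expected counts (log axis) of selected members in classes other than hepatocyte, whether or not they were called raised there. Each point is 1 library, CKO (red) left of WT (blue), with circles for replicate 1 and triangles for replicate 2. Open symbols mark 0 UMIs (placed low for display), with a solid line at 1 and a dotted line at 1.5. F8 stands at 8.37 or more in endothelial nuclei of every library, and F3 in cholangiocyte nuclei has 0 UMIs in CKO replicate 2.

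CKO was compared with WT in each class on counts summed per library, by edgeR's quasi-likelihood test adjusted over all genes tested. No member passed an adjusted p of 0.05 in any class, and neither did any other gene, so the share called was 0.0% of 13335 genes in hepatocyte, 9999 in endothelial, 8650 in mesenchymal, 12232 in macrophage and 10503 in cholangiocyte nuclei. In that order, edgeR gave 227, 544, 643, 645 and 531 genes at an unadjusted p under 0.05, among them 1 of 44, 9 of 43, 11 of 41, 8 of 45 and 2 of 41 members tested. DESeq2 called 2, 1, 1, 2 and 0 genes, with no member among them.

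Most members lay on the higher side in CKO, whatever the class. Median log2 differences of the members tested were 0.18 in hepatocyte, 0.42 in endothelial, 0.41 in mesenchymal, 0.37 in macrophage and 0.31 in cholangiocyte nuclei, while the medians of all genes lay between -0.02 and 0.01. The 19 members raised in hepatocyte nuclei alone had positive differences in 15 of 19 cases in hepatocyte nuclei and in 18 of 19 in each of endothelial, mesenchymal and macrophage nuclei. Their median pooled ratios to free RNA there were 1.0, 0.992 and 1.02. The members raised in the class itself had medians of -0.54 over 3 in endothelial, -0.19 over 3 in mesenchymal and -0.14 over 5 in macrophage nuclei. The free RNA share was higher in CKO in these 3 classes, and its part in these differences was not tested. With the expected free RNA subtracted fewer members were left to test, so their medians are not over the same genes as those above. They were 0.08 over 36 in hepatocyte, -0.01 over 13 in endothelial, 0.58 over 11 in mesenchymal, -0.03 over 18 in macrophage and 0.38 over 12 in cholangiocyte nuclei. Markers of red cells, 6 genes, summed to 1260 and 233 CPM in CKO and 268 and 118 CPM in WT endothelial nuclei, highest in CKO replicate 1 in every class, and their part in the member differences was not tested.

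**Figure D5:**
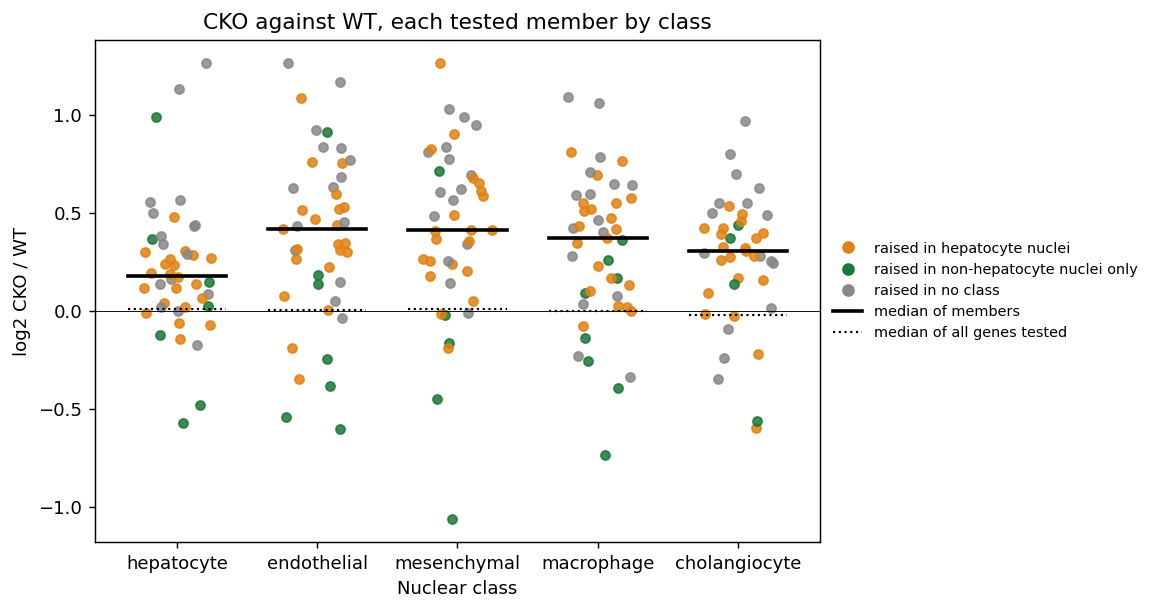
log2 difference of CKO over WT for each tested member by class, 1 point per member coloured by where it was raised over free RNA, with the median of the members (thick line) and of all genes tested (dotted line). Member medians run between 0.18 and 0.42 and those of all genes between -0.02 and 0.01.

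Mbl2 had the smallest p of the members in 4 classes and was second to F9 in mesenchymal nuclei. It had 158 and 141 CPM in CKO and 70.4 and 60.4 CPM in WT hepatocyte nuclei (log2 difference 1.27, SE 0.18, edgeR adjusted p = 1.0). It had 261 and 263 CPM in CKO and 149 and 120.3 CPM in WT endothelial nuclei (log2 difference 1.17, SE 0.26, edgeR adjusted p = 0.642) and 198 and 165 CPM in CKO and 112 and 93.5 CPM in WT mesenchymal nuclei (log2 difference 0.99, SE 0.25, edgeR adjusted p = 0.364). Both CKO libraries lay above both WT libraries in these classes and in the other 2. It had 249.7 and 235 CPM in CKO and 138 and 127 CPM in WT macrophage nuclei (log2 difference 1.06, SE 0.23, edgeR adjusted p = 0.72) and 194 and 195 CPM in CKO and 109 and 97.1 CPM in WT cholangiocyte nuclei (log2 difference 0.97, SE 0.23, edgeR adjusted p = 0.687). The free RNA profile held the same order, at 332 and 287 CPM in CKO and 208 and 145 CPM in WT, and pooled ratios were 0.908 to 1.01, so the difference could not be placed in a class. In hepatocyte nuclei the log2 difference was 1.28 without CKO replicate 1 (edgeR adjusted p = 0.0253) and 1.26 without CKO replicate 2 (edgeR adjusted p = 0.0504).

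C8g, the gamma chain of C8, was next in hepatocyte and endothelial nuclei. It had 63.9 and 135 CPM in CKO and 50.0 and 47.5 CPM in WT hepatocyte nuclei (log2 difference 1.13, SE 0.45, edgeR adjusted p = 1.0) and 117 and 219 CPM in CKO and 72.9 and 86.3 CPM in WT endothelial nuclei (log2 difference 1.27, SE 0.39, edgeR adjusted p = 0.803). It had 103 and 170.2 CPM in CKO and 69.2 and 70.1 CPM in WT mesenchymal nuclei (log2 difference 1.03, SE 0.33, edgeR adjusted p = 0.504) and 114 and 209.7 CPM in CKO and 83.7 and 82.3 CPM in WT macrophage nuclei (log2 difference 1.09, SE 0.35, edgeR adjusted p = 0.899). CKO replicate 2 was the highest library in each of these classes, no genotypes overlapped, and the free RNA profile held 145 and 244 CPM in CKO and 125 and 145 CPM in WT. Without CKO replicate 1 the log2 differences were 1.64 in hepatocyte, 1.86 in endothelial, 1.57 in mesenchymal and 1.66 in macrophage nuclei (edgeR adjusted p = 0.0129, 4.4e-07, 0.00102 and 0.0116, in the same order). Without CKO replicate 2 they were 0.38 in hepatocyte, 0.76 in endothelial, 0.69 in mesenchymal and 0.61 in macrophage nuclei (edgeR adjusted p = 0.491, 0.104, 0.214 and 0.256). With free RNA subtracted the hepatocyte value was 4.28 (edgeR adjusted p = 1.0). C8g ratios there were 1.07 and 1.21 in CKO and 1.02 and 0.769 in WT, so subtraction left little or none of the WT counts. With the replicate number as a block, edgeR called C8g and Mbl2 in endothelial nuclei, at log2 differences of 1.18 and 1.16 (adjusted p = 0.00916 and 0.0138), and no member in another class.

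F9, the factor lost in haemophilia B, led in mesenchymal nuclei, with 95.2 and 73.8 CPM in CKO and 41.1 and 42.1 CPM in WT (log2 difference 1.26, SE 0.27, edgeR adjusted p = 0.289) at the ratios of free RNA, 1.06 and 1.18 in CKO and 0.787 and 1.1 in WT. In macrophage nuclei it had 93.4 and 75.1 CPM in CKO and 55.6 and 57.9 CPM in WT (log2 difference 0.81, SE 0.25, edgeR adjusted p = 0.899), and in cholangiocyte nuclei 59.9 and 41.1 CPM in CKO and 44 and 37.7 CPM in WT (log2 difference 0.53, SE 0.26, edgeR adjusted p = 1.0). Both CKO libraries were higher in mesenchymal, macrophage and hepatocyte nuclei, where F9 had 100.4 and 83.1 CPM in CKO and 76.1 and 81.4 CPM in WT (log2 difference 0.28, SE 0.20, edgeR adjusted p = 1.0), but the genotypes overlapped in cholangiocyte nuclei. Fgg had 905 and 938 CPM in CKO and 525 and 592 CPM in WT endothelial nuclei (log2 difference 0.92, SE 0.33, edgeR adjusted p = 0.879), and Fga had 813 and 626 CPM in CKO and 454 and 476 CPM in WT cholangiocyte nuclei (log2 difference 0.70, SE 0.30, edgeR adjusted p = 0.984), both without overlap and at pooled ratios of 1.0 and 1.0.

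Other genes of both systems came from lists of 33 complement and 35 coagulation and fibrinolysis genes, and edgeR called 0 of them between CKO and WT in any class. Of the complement list, 13 of 28 with enough UMIs were raised in hepatocyte, 4 of 26 in endothelial, 5 of 25 in mesenchymal, 9 of 27 in macrophage and 2 of 26 in cholangiocyte nuclei, and of the coagulation list 12 of 29, 3 of 27, 8 of 25, 3 of 30 and 2 of 26. At an unadjusted p under 0.05 edgeR gave 1 of 27, 5 of 21, 3 of 19, 5 of 26 and 3 of 18 complement genes tested, in that order of classes. Of the coagulation genes tested it gave 1 of 23, 3 of 22, 4 of 23, 3 of 25 and 3 of 23. Among these, 1, 4, 3, 4 and 3 of the complement list and 1, 2, 3, 3 and 3 of the coagulation list were higher in CKO. Over all genes tested edgeR gave 227 of 13335, 544 of 9999, 643 of 8650, 645 of 12232 and 531 of 10503. Cfhr2, encoding a factor H-related protein, had 289 and 186 CPM in CKO and 155 and 116 CPM in WT endothelial nuclei (log2 difference 1.04, SE 0.27, edgeR adjusted p = 0.801). Proz, encoding protein Z, had 135 and 97 CPM in CKO and 82.9 and 84.8 CPM in WT macrophage nuclei (log2 difference 0.70, SE 0.25, edgeR adjusted p = 0.899). Itgax, a chain of complement receptor 4, had 16.7 and 6.26 CPM in CKO and 37.9 and 42.4 CPM in WT macrophage nuclei (log2 difference -1.24, SE 0.35, edgeR adjusted p = 0.899). Mmrn1, encoding a factor V binding protein, had 2 and 0 UMIs in CKO and 45 and 5 UMIs in WT endothelial nuclei (edgeR adjusted p = 0.642). The genotypes did not overlap in these 4 genes in the classes named, and none passed. Each was chosen as the gene of its list with the smallest p in that class.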

How the data were processed

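Single-nucleus RNA was measured in 4 liver libraries, 2 CKO and 2 WT. The deposited values are raw UMI counts per gene and barcode, made by the authors with Cell Ranger 5.0.1 on mm10, per the file headers and the submitters' processing notes. Whether intron reads were counted is not given in the sources used here. Barcodes with at least 500 genes were kept, doublets removed with Scrublet (0.8% per 1000 barcodes), and nuclei clustered with scanpy 1.11.5 (2000 variable genes without the members, 30 components, Leiden resolution 1, 23 clusters). Clusters were named from 15 markers per class, and 20841 barcodes stayed unnamed. For each class the counts of a library were added up and tested with edgeR 4.0.16 (filterByExpr, TMM scaling, quasi-likelihood, Benjamini-Hochberg over all genes), with DESeq2 1.42.0 as an alternative, and scripts were tested on simulated data. The free RNA profile came from the lowest 10% of kept barcodes by UMI total, whatever their class, scaled by 20 secreted transcripts, with a floor of 3 counts. The totals of 12261329 to 45620141 UMIs per library set the precision, and exact Poisson intervals cover counting error only.

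The members and lists were chosen with earlier results of these data known. Values in every library are given for the 10 hepatocyte members of highest CPM, the 6 members per other class with the highest lowest-library ratio, and the 3 members per class with the smallest p, and members outside this rule are said to be so or are given by pooled ratio. The finer clusters (Leiden resolution 2) split by library were added after the data were seen.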

Additional observations from a re-analysis of the deposited data

Results flagged for a closer look

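For 3 members the difference between CKO and WT ran in opposite directions in different classes, with both CKO libraries on one side of both WT libraries each time, and in each case the difference between classes was not tested. How many of all genes did the same was not counted, so the 3 members are not shown to be unusual. C1ra had mean CPM in CKO over WT of 1.61 in mesenchymal and 1.17 in cholangiocyte nuclei, and 0.857 in endothelial nuclei, where the libraries had 49.6 and 40.1 CPM in CKO and 52.5 and 52.2 CPM in WT. F8 had 1.82 in mesenchymal nuclei, from 46 and 16 UMIs in CKO and 83 and 14 UMIs in WT, and 0.726 in endothelial nuclei. Thbd had 2.31 in macrophage nuclei, from 17 and 2 UMIs in CKO and 19 and 1 UMIs in WT, and 0.189 in endothelial nuclei, from 4 and 0 UMIs in CKO and 20 and 2 UMIs in WT. Pooled ratios of C1ra were 1.02 in mesenchymal, 0.925 in cholangiocyte and 0.917 in endothelial nuclei, so its counts there were about those of free RNA. For F8 they were 1.12 in mesenchymal and 9.43 in endothelial nuclei, and for Thbd 1.66 in macrophage and 2.19 in endothelial nuclei.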

How the results depend on the processing

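Members called by edgeR between CKO and WT were 0 in each class, and leaving out 1 library gave 0 to 2 in hepatocyte, 0 to 8 in endothelial, 0 to 6 in mesenchymal, 0 to 3 in macrophage and 0 to 3 in cholangiocyte nuclei. The highest counts came without CKO replicate 1, except in cholangiocyte nuclei, where they came without CKO replicate 2. The remaining CKO library is then assumed to vary like the WT pair. Without a count filter 2 members were called in endothelial (C8g and Mbl2), 1 in mesenchymal (F9) and 2 in macrophage nuclei (C8g and Mbl2). They were among 90, 142 and 128 genes called there, in that order. The replicate block called 2 members in endothelial nuclei and 88 genes there, and 0 in the other classes. The labels do not say whether same-numbered libraries share a litter, batch or day. Their deviations correlated at 0.27, 0.12, 0.08, 0.13 and 0.12 in hepatocyte, endothelial, mesenchymal, macrophage and cholangiocyte nuclei. Log2 differences turned direction for F13a1 in macrophage nuclei under DESeq2 (-0.0033) and with free RNA subtracted (-0.015). Fga in cholangiocyte nuclei also turned with free RNA subtracted (-1.05). That Fga value comes from small remainders, at ratios of 1.0 and 1.02 in CKO and 0.996 and 1.06 in WT. With 1 library left out log2 differences ran over -0.35 to 0.22 for C1qb, -0.0897 to 0.42 for C1qc and -1.36 to 0.40 for F13a1 in macrophage nuclei, and -0.96 to 0.17 for Tfpi in endothelial nuclei. Members raised numbered 3 to 5 in endothelial nuclei with 1 library left out, the 5 without CKO replicate 2 adding Pros1 and Thbd. In cholangiocyte nuclei they numbered 0 to 2, the 2 being Masp1 and F3 without CKO replicate 2, and 1 (C2) with all unnamed barcodes as the free RNA profile. Members highest in hepatocyte nuclei numbered 29 with free RNA subtracted. The cause was not tested in these cases. Apart from left-out libraries, 191 alternative values of named members kept their direction and side of the threshold, 7 newly passed it and 3 turned. With 45 to 152 nuclei per class outside hepatocytes and macrophages, CKO replicate 2 limits the depth most.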

Other observations

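Ratios of 3 members in single clusters are given here, chosen after their values were seen. These are clusters of Leiden resolution 1, whose numbers are separate from those of the finer clusters above. C2, the protease of the classical convertase, had a ratio of 3.03 (95% interval 2.07 to 4.28, 32 UMIs) in cluster 12, an unnamed cluster of 100 nuclei. There 5 of 15 mesenchymal and 5 of 6 mesothelial markers were raised. Pros1 had 4.44 (95% interval 2.71 to 6.86, 20 UMIs) in cluster 8, an endothelial cluster of 33 nuclei, beside 2.21 (95% interval 2.05 to 2.37) in the whole class. Tfpi had 2.25 (95% interval 1.8 to 2.77) in macrophage cluster 1, which came almost wholly from WT replicate 1 (1470 of 1497 nuclei), beside 1.6 (95% interval 1.4 to 1.81) in the whole class.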
